A study of Homo sapiens with 6 samples.

Results

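The transcripts described here are those of 55 genes that carry out DNA replication: the factors that license origins, the helicase and the factors that fire it, the replicative polymerases, the sliding clamp and its loaders, RPA, the enzymes that finish Okazaki fragments, fork protection proteins and the enzymes that supply nucleotides. They were picked by symbol as a functional set, with earlier results of these data known. All 55 had a row in a count table of 36887 genes, and all 55 passed the filter on low counts, which kept 21036 genes. RNA was sequenced from 5637 cells, an established human bladder carcinoma line, at 48 h after transfection with a control siRNA (siNC, 3 samples) or an siRNA against YKT6 (siYKT6, 3 samples), and all 6 samples share the parental line with no other named treatment. YKT6 encodes a SNARE protein of membrane fusion, and the study asked what its loss changes in bladder cancer cells, including their passage through the cell cycle. The sources used here do not say which siRNA sequence the siYKT6 samples received or whether replicates were separate cultures, so the p values speak for the spread of these samples alone, which may be technical, and 1 cell line stands for the model.

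Preparation for replication begins before S phase. ORC marks an origin, CDC6 and CDT1 load the MCM2-7 ring onto it during G1, and the DBF4-dependent kinase CDC7 together with cyclin-dependent kinases later recruits CDC45 and GINS to turn the ring into a working helicase. Polymerase alpha-primase then starts each strand, polymerases delta and epsilon extend it on the PCNA clamp, RPA covers the exposed single strands, FEN1 and LIG1 seal the lagging strand, and ribonucleotide reductase with thymidylate synthase makes the DNA precursors. Many of these genes are transcribed at the border of G1 and S phase by E2F factors, which bind a short promoter word, and their levels are used as a sign of proliferation in tumors.

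The promoters below are examples that hold this shared word, from members that were higher and members that were lower after knockdown. Many other members lack the word, as counted below. The windows run from 250 bases before to 50 bases after a transcript start in RefSeq on GRCh38.p14, 300 bases in all, and are printed 5′ to 3′ on the strand of the gene. Capitals mark E2F words (TTTGGCGC, TTTCCCGC, TTTCGCGC or TTTGCCGC on either strand, which may overlap) and CCAAT boxes on either strand, which bind NF-Y in many cell-cycle promoters. MCM2, a helicase subunit, lies on the plus strand at chr3:127598161-127598460, LIG1, the replicative DNA ligase, on the minus strand at chr19:48170295-48170594, CDC6, a helicase loader, on the plus strand at chr17:40287629-40287928, and MCM6, another helicase subunit, on the minus strand at chr2:135876394-135876693. MCM2 and LIG1 were higher in siYKT6 cells, whereas CDC6 and MCM6 were lower.
MCM2: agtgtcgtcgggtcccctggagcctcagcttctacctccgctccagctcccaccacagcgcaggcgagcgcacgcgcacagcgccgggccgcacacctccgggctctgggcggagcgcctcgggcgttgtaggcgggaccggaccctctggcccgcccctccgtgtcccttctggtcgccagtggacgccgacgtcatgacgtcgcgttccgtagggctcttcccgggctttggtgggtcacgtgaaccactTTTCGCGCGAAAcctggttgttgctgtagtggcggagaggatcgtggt
LIG1: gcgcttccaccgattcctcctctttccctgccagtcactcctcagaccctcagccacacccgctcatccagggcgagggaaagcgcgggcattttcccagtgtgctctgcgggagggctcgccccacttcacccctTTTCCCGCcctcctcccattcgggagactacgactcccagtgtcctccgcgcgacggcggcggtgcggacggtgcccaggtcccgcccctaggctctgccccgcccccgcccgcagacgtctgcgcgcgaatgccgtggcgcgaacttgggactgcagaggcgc
CDC6: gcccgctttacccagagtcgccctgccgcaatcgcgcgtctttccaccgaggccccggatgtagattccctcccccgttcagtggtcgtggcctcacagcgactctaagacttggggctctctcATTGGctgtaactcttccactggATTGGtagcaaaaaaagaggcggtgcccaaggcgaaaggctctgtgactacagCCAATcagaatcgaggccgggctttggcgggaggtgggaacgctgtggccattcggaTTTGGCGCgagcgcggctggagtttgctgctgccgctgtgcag
MCM6: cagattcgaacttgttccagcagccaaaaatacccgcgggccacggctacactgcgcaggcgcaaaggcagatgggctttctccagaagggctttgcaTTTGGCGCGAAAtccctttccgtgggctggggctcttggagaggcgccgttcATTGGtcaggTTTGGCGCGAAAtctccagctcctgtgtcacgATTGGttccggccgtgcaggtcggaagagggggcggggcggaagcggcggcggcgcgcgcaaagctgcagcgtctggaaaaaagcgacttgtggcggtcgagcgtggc

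RefSeq promoter windows matched 48 of the 55 genes, and 24 of the 48 (50%) held an E2F word in at least 1 window, against 3.99% of 27305 genes with a window and 6.24% of the 11431 of those that were tested here. CCAAT boxes were in the windows of 58.3% of the members, against 39.7% of all genes and 42.8% of tested genes. CHR words (TTTGAA or TTCGAA on either strand), another element of cell-cycle promoters, were in the windows of 10.4% of the members, against 19.5% of all genes and 16.0% of tested genes, with 3 of 24 higher members and 2 of 4 lower members among them. An E2F word was in the windows of 14 of the 24 matched members that were higher after knockdown (58.3%), of 2 of the 4 that were lower (50%) and of 8 of the 20 that passed neither way (40.0%). FEN1, among the largest rises below, held none of these words. A match is a description of letters, and no match says only that the letters are not in these windows.

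Libraries held 45205238 to 64982015 counts, so the members were measured with many reads, and the common coefficient of variation between replicates was 0.0418. YKT6 itself was lower in every siYKT6 sample, at 64.5, 65.3 and 68.2 CPM in siNC 1, 2 and 3 and 17.7, 19.4 and 17.3 CPM in siYKT6 1, 2 and 3 (CPM, counts scaled to 1000000 counts of the normalized library). This left 27.5% of the control level (log2 fold change of siYKT6 over siNC −1.86, standard error 0.0477, edgeR's quasi-likelihood test adjusted p = 5.3e-17), and the exact permutation p over the samples was 0.1 (two-sided), the smallest that 3 against 3 can give. Of 13 urothelial and epithelial markers 11 passed the filter, their summed level lay between 5920 and 6077 CPM in siNC and between 3865 and 4114 CPM in siYKT6, 6 were lower and 1 was higher, and UPK1B and KRT20 were at or near 0 in all samples. Leukocyte markers summed to 3.48 to 5.22 CPM and endothelial markers to 0.861 to 1.6 CPM over the 6 samples, with PTPRC, CD3E and CDH5 at or near 0, and fibroblast markers, mostly COL1A1, to 26.5 to 28.6 CPM in siNC and 30.8 to 32.9 CPM in siYKT6. The mitochondrial share of counts was 7.91% to 8.24% in siNC and 8.44% to 8.73% in siYKT6. The part of these differences in the results below was not tested.

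Replication transcripts rose more often than they fell after YKT6 knockdown, by small amounts. Of the 55 genes, 30 were higher, 4 were lower and 21 passed neither way, where higher and lower mean an adjusted p under 0.05 by the quasi-likelihood test of edgeR. Over all 21036 tested genes, 14.6% were higher, 16.3% were lower and 30.8% passed in either direction. Fitted over the 15109 genes with at least 1 CPM in all samples, 20.1% of genes were higher and 21.6% lower. In that fit 32 of the 55 members were higher and 5 were lower. Against either background the members rose more often and fell less often, a description that carries no test of its own. Their median log2 fold change was 0.14, with a range of −0.31 to 0.51, against a median of 0.00219 over all tested genes. All 3 siYKT6 samples lay above all 3 siNC samples in 33 members and below them in 6, where 20.3% and 21.5% of all tested genes did so. Summed over the 55 genes, the level was 5353, 5281 and 5339 CPM in siNC and 6031, 6069 and 6118 CPM in siYKT6, which do not overlap. In bulk RNA, more cells in a phase that uses these genes and more of their RNA per cell cannot be told apart. In separate assays of this cell line, the paper reports G1 arrest after YKT6 knockdown by flow cytometry. It also reports less growth in MTT and colony assays. The RNA levels alone do not measure the rate of division, and how the rises relate to that arrest was not tested.

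**Figure D1:**
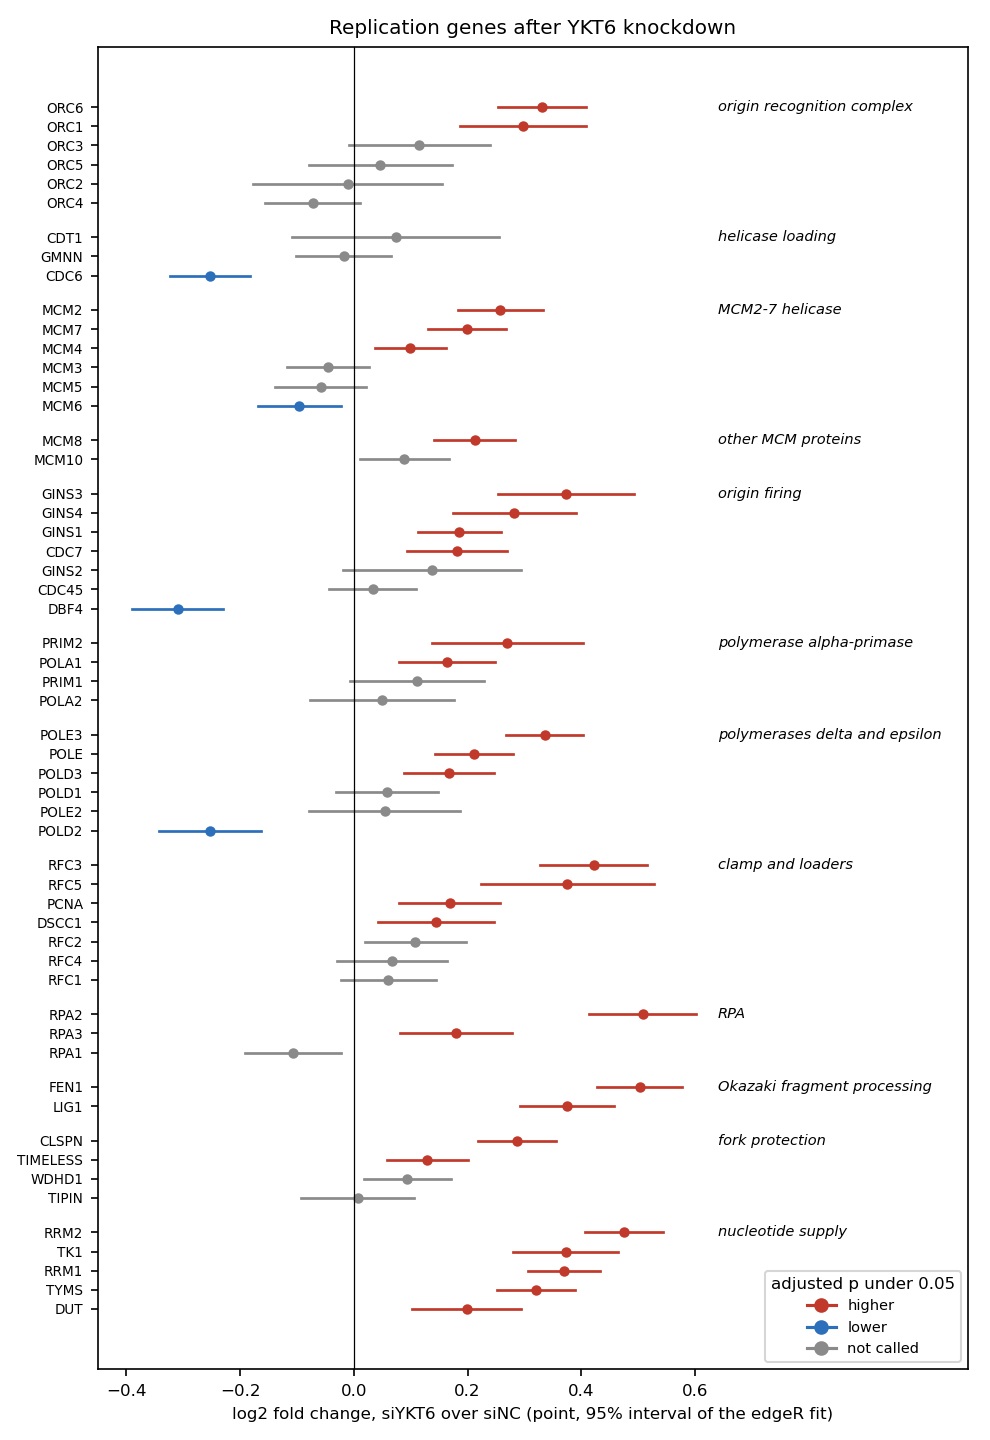
Log2 fold change of siYKT6 over siNC for each of the 55 genes (x axis; points with 95% intervals of the edgeR fit), grouped by role and colored by whether the gene was higher, lower or not called at an adjusted p under 0.05. The 30 higher genes reach 0.51, the 4 lower genes are CDC6, MCM6, DBF4 and POLD2, and all 5 nucleotide supply genes are on the right of 0.

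**Figure D2:**
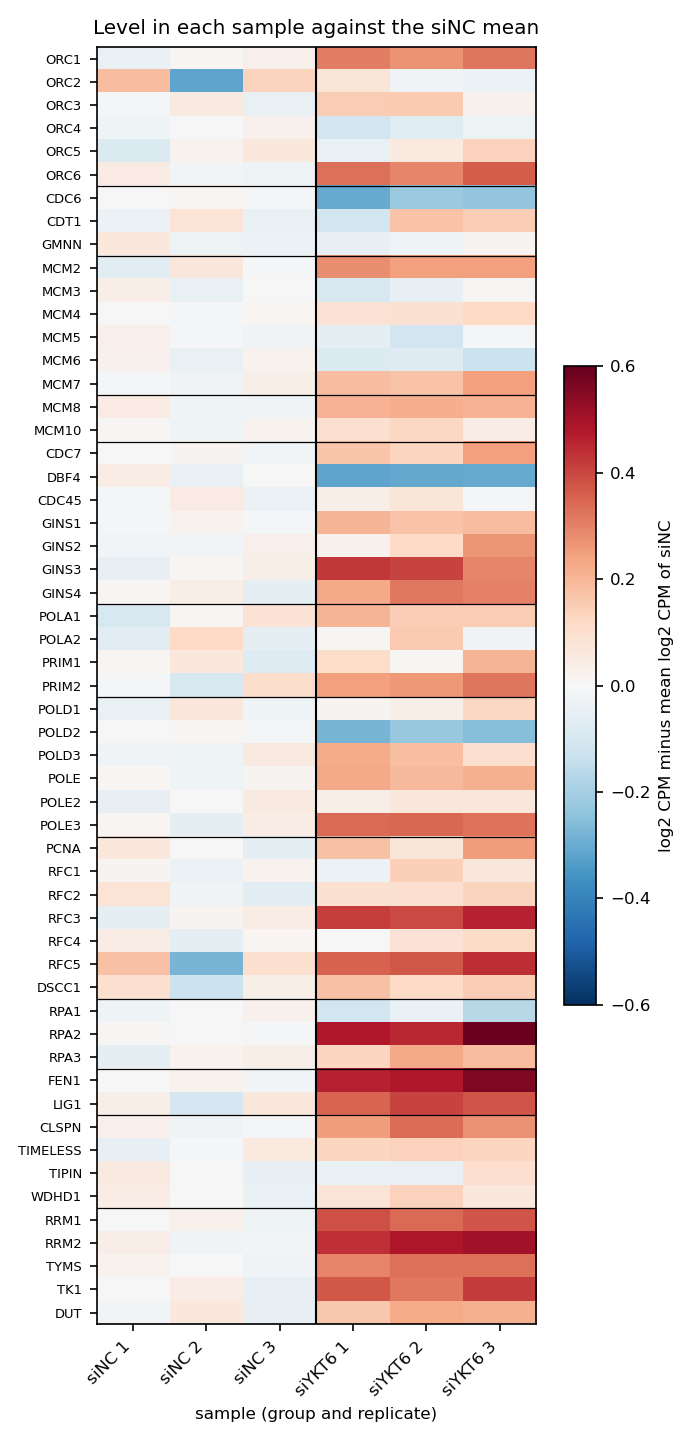
Level of each of the 55 genes in each of the 6 samples, as log2 CPM minus the mean log2 CPM of siNC (color scale, −0.6 to 0.6), with the groups separated by a vertical line and roles by horizontal lines. RPA2, FEN1 and RRM2 are dark in all 3 siYKT6 columns, and siNC 2 stands below the other controls for ORC2 and RFC5.

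Of the 6 genes of the origin recognition complex, 2 were higher. ORC6, the small subunit that recruits loading factors, was at 78.3, 74.9 and 74.3 CPM in siNC 1, 2 and 3 and 95.3, 93.0 and 97.6 CPM in siYKT6 1, 2 and 3. All siYKT6 samples were above all controls (log2 fold change 0.33, standard error 0.037, edgeR adjusted p = 4.6e-07). ORC1, the ATPase subunit whose level varies over the cell cycle, was higher as well, with a log2 fold change of 0.30 (edgeR adjusted p = 1.5e-04). The core subunits ORC2, ORC3, ORC4 and ORC5 did not pass, with log2 fold changes of −0.01, 0.12, −0.07 and 0.05. ORC2 rested on 1 library, since siNC 2 was at 32.5 CPM against 44.5 and 46.0 CPM in the other controls, and without siNC 2 its log2 fold change was −0.15 (edgeR adjusted p = 0.023).

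Of the loading genes, CDC6 was lower. CDC6, the ATPase that joins ORC to load the MCM ring, lies at chromosome 17, 40287633 to 40304657 of GRCh38 and was at 165, 167 and 164 CPM in the controls and 134, 142 and 141 CPM after knockdown. Its siYKT6 samples were all below the controls (log2 fold change −0.25, standard error 0.0339, edgeR adjusted p = 5.1e-06). CDT1, the other loader, had the lowest level per length of all members, 2.12 CPM per kb of exon in siNC, and a log2 fold change of 0.07 with a 95% interval of −0.11 to 0.26, which includes no change. GMNN, geminin, which binds and blocks CDT1 after origins have fired, was at a log2 fold change of −0.02 (95% interval −0.10 to 0.07). So of the 3 loading genes 1 was lower and none was higher at the threshold, and their sum was 229 ± 2.53 CPM in siNC and 202 ± 5.83 CPM in siYKT6 (SD, n = 3 each).

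The 6 subunits of the MCM2-7 helicase, which form 1 ring in equal copies as proteins, did not all pass in 1 direction as transcripts. MCM2 was at 145, 159 and 151 CPM in siNC and 184, 180.1 and 179.8 CPM in siYKT6, without overlap (log2 fold change 0.26, standard error 0.0359, edgeR adjusted p = 8.7e-06). MCM7 rose from 238, 237 and 246 CPM to 273, 269.9 and 284 CPM (log2 fold change 0.20, standard error 0.0329, edgeR adjusted p = 6.6e-05), and its 3 siYKT6 samples were the 3 highest. MCM4 was at 331, 330.1 and 334 CPM in siNC and 352, 353 and 360.2 CPM in siYKT6, a small rise that was still larger than the replicate spread (log2 fold change 0.10, standard error 0.0302, edgeR adjusted p = 0.015). MCM5, which forms the gate of the ring with MCM2, and MCM3, its other neighbor in the ring, passed in neither direction. For MCM3 the values were 273, 258 and 266 CPM in siNC and 249, 256 and 267 CPM in siYKT6, and the groups overlapped (log2 fold change −0.05, 95% interval −0.12 to 0.03). For MCM5 they were 69.3, 67.7 and 66.9 CPM and 65.5, 62.8 and 67.4 CPM, again with overlap (log2 fold change −0.06, 95% interval −0.14 to 0.02). MCM6 was at 126, 120.2 and 126 CPM in siNC and 117, 117 and 114 CPM in siYKT6, and every siYKT6 sample was below every control by a small margin (log2 fold change −0.10, standard error 0.0349, edgeR adjusted p = 0.041). The call of MCM6 was lost in 8 of 14 alternatives, upper quartile scaling among them, and with 1 sample left out in turn its edgeR adjusted p ran from 0.023 to 0.15 and passed only without siNC 2. The summed ring transcripts moved from 1181 ± 8.94 to 1251 ± 18.6 CPM (SD, n = 3 each), a difference of 5.93%.

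MCM8, which works with MCM9 in fork maintenance and recombination and is not part of that ring, was at 131, 125 and 125 CPM in the controls and 147, 148 and 147 CPM after knockdown. It was higher in every siYKT6 sample (log2 fold change 0.21, standard error 0.034, edgeR adjusted p = 4.7e-05). MCM10, needed to activate the helicase, did not pass, with a log2 fold change of 0.09 (edgeR adjusted p = 0.083).

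Among the firing factors, both subunits of the CDC7 kinase passed, in opposite directions. DBF4, the regulatory subunit whose level limits the activity of the kinase, lies at chromosome 7, 87876216 to 87909541 of GRCh38 and was at 65.3, 61.5 and 63.3 CPM in siNC and 50.9, 51.2 and 51.3 CPM in siYKT6, the largest fall of the 55 genes (log2 fold change −0.31, standard error 0.0384, edgeR adjusted p = 1.9e-06). CDC7, the catalytic subunit, was at 40.4, 40.9 and 40.0 CPM in siNC and 45.4, 44.2 and 48 CPM in siYKT6 (log2 fold change 0.18, standard error 0.0422, edgeR adjusted p = 0.0021). Per kb of exon, the ratio of CDC7 to DBF4 was 0.796, 0.856 and 0.814 in siNC and 1.15, 1.11 and 1.2 in siYKT6. This ratio was chosen after the values had been seen. In CPM, CDC7 was below DBF4 in every sample of both groups. Whether the ratio lies above or below 1 thus depends on the exon lengths used. GINS3, 1 of 4 subunits of the GINS complex that links the helicase to the polymerases, rose from 14.1, 14.7 and 15.0 CPM to 19.6, 19.3 and 17.9 CPM (log2 fold change 0.37, standard error 0.0575, edgeR adjusted p = 3.0e-05). An antisense neighbor shares 10.9% of the exonic bases of GINS3, and its own log2 fold change was 0.57 (edgeR adjusted p = 0.0016). Another shares 21.2% of those of GINS4 and was at 0.23 (edgeR adjusted p = 0.23). A further antisense neighbor, over 2.39% of GINS4, was at 0.33 (edgeR adjusted p = 0.011). The sources used here do not give whether counting used strand. GINS1 and GINS4 were also higher (log2 fold changes 0.19 and 0.28), whereas GINS2 and CDC45, the partner of GINS in the active helicase, were at 0.14 and 0.03 and did not pass.

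Of the 4 genes of priming 2 were higher, and of the 6 genes of polymerases delta and epsilon 3 were higher and 1 was lower. In polymerase alpha-primase, PRIM2, the large primase subunit, was at 12.4, 11.7 and 13.5 CPM in siNC and 14.9, 15.0 and 15.7 CPM in siYKT6 (log2 fold change 0.27, standard error 0.0638, edgeR adjusted p = 0.0024). POLA1, the catalytic polymerase subunit, was higher by 0.16 on the log2 scale, whereas POLA2 (0.05) and PRIM1 (0.11) did not pass. In polymerase epsilon, which copies the leading strand, POLE3, a histone-fold subunit, was at 319, 304 and 325 CPM in siNC and 400.3, 401 and 395 CPM in siYKT6, and the catalytic subunit POLE was higher by 0.21. The rise of POLE3 (log2 fold change 0.34, standard error 0.0324, edgeR adjusted p = 5.6e-08) was the largest of the 6 delta and epsilon genes, and POLE2 was at 0.05 and not called. C9orf43, an antisense neighbor that shares 3.99% of the exonic bases of POLE3, had a log2 fold change of 0.36, close to that of POLE3.

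In polymerase delta, which copies the lagging strand, the subunits parted. POLD2, the accessory subunit that bridges POLD1 and POLD3, was at 33.2, 33.6 and 33.1 CPM in siNC and 27.4, 28.4 and 27.9 CPM in siYKT6, a fall in every sample (log2 fold change −0.25, standard error 0.0431, edgeR adjusted p = 9.4e-05). POLD3, which carries a PCNA-binding motif, went from 125, 124 and 132 CPM to 148, 144 and 136 CPM (log2 fold change 0.17, standard error 0.038, edgeR adjusted p = 0.0017), and the catalytic subunit POLD1 was at 0.06 (95% interval −0.03 to 0.15). POLD2 is also a neighbor of the silenced gene: it lies at chromosome 7, 44114681 to 44124358 of GRCh38, and YKT6 starts 76.6 kb further on, at 44200968. Whether this position has a part in its fall was not tested.

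**Figure D3:**
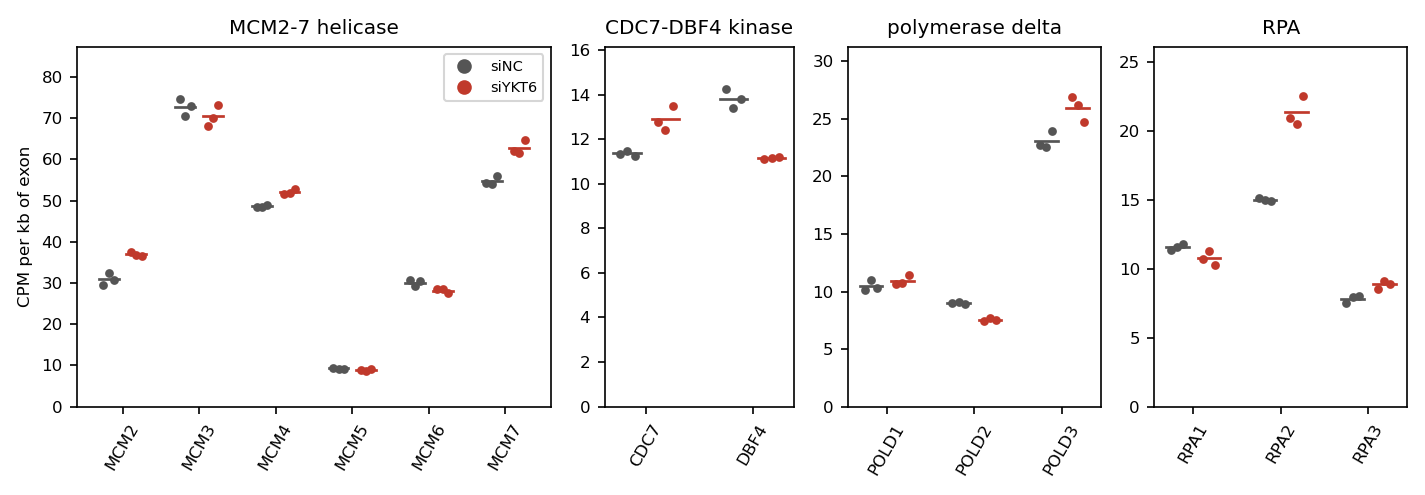
Level of each subunit in CPM per kb of exon (y axes, from 0) for the MCM2-7 helicase, the CDC7-DBF4 kinase, polymerase delta and RPA, with 1 point per sample and a line at the group mean (siNC gray, siYKT6 red). DBF4 and POLD2 fall while CDC7 and POLD3 rise, and MCM3 and MCM5 overlap between groups.

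The clamp and its loaders were higher or passed neither way, and none was lower. PCNA, the sliding clamp, had a log2 fold change of 0.17 (edgeR adjusted p = 0.0042). RFC3, a subunit of the loader that opens the clamp, was at 25.8, 27.2 and 27.8 CPM in siNC and 35.9, 35.5 and 37.1 CPM in siYKT6, without overlap (log2 fold change 0.42, standard error 0.0451, edgeR adjusted p = 2.5e-07). RFC5, its partner in the loader, was at 31.4, 22.9 and 29.8 CPM and 35.5, 35.9 and 37.7 CPM (log2 fold change 0.38, standard error 0.0728, edgeR adjusted p = 3.8e-04). The low siNC 2 value of RFC5 carries part of this size, and without that library the log2 fold change was 0.25 (edgeR adjusted p = 0.00066). RFC1, RFC2 and RFC4, at 0.06, 0.11 and 0.07, did not pass, so 2 of the 5 RFC subunits were higher. DSCC1, of an alternative loader for cohesion, was higher at 0.14 (edgeR adjusted p = 0.028), a call that was lost without siNC 2 (log2 fold change 0.08, edgeR adjusted p = 0.21) or without siYKT6 1 (log2 fold change 0.13, edgeR adjusted p = 0.094).

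In RPA, the trimer that coats single-stranded DNA, 2 of 3 genes were higher. RPA2, the subunit phosphorylated in the cell cycle and after damage, lies at chromosome 1, 27891524 to 27914746 of GRCh38 and was at 30.5, 30.3 and 30.1 CPM in siNC and 42.3, 41.5 and 45.5 CPM in siYKT6. This was the largest rise of the 55 genes (log2 fold change 0.51, standard error 0.0448, edgeR adjusted p = 1.5e-08). RPA3 was higher by 0.18 (edgeR adjusted p = 0.0057), while RPA1, the large DNA-binding subunit, was at −0.11 and missed the threshold (edgeR adjusted p = 0.052), although all 3 of its siYKT6 samples were below the controls. Per kb of exon, RPA2 stood at 1.27 to 1.33 times RPA1 in siNC and at 1.82 to 2.19 times RPA1 in siYKT6, also a ratio chosen after the values had been seen.

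Both genes of Okazaki fragment processing rose. FEN1, the nuclease that removes the primer flap, lies at chromosome 11, 61792637 to 61797244 of GRCh38 and was at 96.7, 98.1 and 95.8 CPM in siNC and 134, 135 and 143 CPM in siYKT6 (log2 fold change 0.50, standard error 0.0359, edgeR adjusted p = 6.0e-10). LIG1, which seals the nick that FEN1 leaves, was at 111, 101 and 113 CPM and 137, 143 and 140.2 CPM (log2 fold change 0.37, standard error 0.0399, edgeR adjusted p = 2.3e-07). The groups did not overlap in either gene, and their sum was higher by 35.4%, the largest difference of the 12 groups of members.

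Of the 4 fork protection genes, 2 were higher. CLSPN, claspin, the adaptor that carries the signal from ATR to CHK1 at stalled forks, was at 293, 283 and 286 CPM in siNC and 342, 363 and 347 CPM in siYKT6 (log2 fold change 0.29, standard error 0.0327, edgeR adjusted p = 5.9e-07). TIMELESS, which travels with the fork, was higher by 0.13 on the log2 scale, but TIPIN, the partner that it binds, was at 0.01 (95% interval −0.09 to 0.11). WDHD1, which ties polymerase alpha to the helicase, was at 0.09 and missed the threshold (edgeR adjusted p = 0.06).

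All 5 nucleotide supply genes were higher. RRM1, the large subunit of ribonucleotide reductase and per length the most abundant of all 55 transcripts (133 CPM per kb of exon in siNC), was at 556, 568 and 544 CPM in siNC and 727, 704 and 722 CPM in siYKT6 (log2 fold change 0.37, standard error 0.0304, edgeR adjusted p = 5.2e-09). RRM2, the small subunit, which limits the enzyme in S phase, was at 205, 197 and 198 CPM and 271, 279 and 284 CPM (log2 fold change 0.48, standard error 0.033, edgeR adjusted p = 4.0e-10). No control reached any knockdown sample in either subunit. TK1, thymidine kinase of the salvage route, was at 31.7, 32.6 and 30.5 CPM in siNC and 40.9, 39.4 and 42.3 CPM in siYKT6 (log2 fold change 0.37, standard error 0.0445, edgeR adjusted p = 1.1e-06). TYMS, which makes thymidylate, and DUT, which keeps uracil out of DNA, were higher by 0.32 and 0.20. As a sum the 5 genes went from 943 ± 16.0 to 1228 ± 12.6 CPM (SD, n = 3 each), a difference of 30.2%. The antisense gene RRM1-AS1, which shares 1.51% of the exonic bases of RRM1, was at 0.38, and ENOSF1, antisense over 18.8% of TYMS, was at 0.21, and reads in the shared stretches of these pairs cannot be told apart without the strand setting. Over all members, 23 share exonic bases with another gene of the table and 32 share none. With a single other gene, 5 share over 10% of theirs (GINS3, GINS4, TIPIN, TYMS and DUT). RFC5 shares 4.92% and 5.72% with the antisense genes RP11-33N14.3 and WSB2, which were at 0.51 and 0.24. FADS2 shares 1.98% of the exonic bases of FEN1 on the same strand and was at 0.18, and strand cannot separate reads in that stretch. RP11-435D7.3, antisense over 5.17% of CLSPN, was at 0.27. In 17 members, an overlapping gene has over 10% of the count of the member.

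Other genes of the pathway were also higher in many cases. Of 26 other replication genes, 13 were higher and 1, RNASEH2B of ribonuclease H2 (−0.15), was lower, with a median log2 fold change of 0.15. The named rises were PCLAF, a PCNA-binding factor, at 0.55, RECQL4, a helicase of initiation and repair, at 0.52, ATAD5, which unloads PCNA, at 0.40, and ESCO2, which acetylates cohesin in S phase, at 0.40. Licensing regulators were higher in 10 of 13 cases and lower in none, among them DBF4B, the second activator of CDC7 (0.34), DTL, the ubiquitin ligase adaptor that removes CDT1 (0.31), CCNE2, cyclin E2 (0.26), and CDK2, its kinase (0.22). DBF4B thus rose where DBF4 fell, and DTL rose where the transcript of its substrate CDT1 did not pass the test. Chromatin assembly, which packs new DNA, was higher in 8 of 10 genes and lower in none, with UHRF1 at 0.31 and CHAF1A, a CAF-1 subunit, at 0.19.

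Nucleotide synthesis outside the 5 members held more falls than rises. Of 26 genes of purine, pyrimidine and folate supply, 3 were higher and 10 were lower, and the median log2 fold change was −0.08. GART, which carries out steps of purine synthesis, went from 197 ± 5.65 to 153 ± 3.47 CPM (SD, n = 3 each), with a log2 fold change of −0.37 (edgeR adjusted p = 2.8e-08). PAICS, which acts later on that route, was at −0.32, and SHMT2, the mitochondrial source of folate-bound carbon, at −0.39. NME2, a nucleoside diphosphate kinase, was at −0.40. NME1, its near-identical neighbor, was lower too, at −0.23, and was picked after its values had been seen. The split of reads between NME1 and NME2 is uncertain. DCK, deoxycytidine kinase (0.20), and DTYMK, thymidylate kinase (0.25), were among those that were higher. The call of DTYMK was lost in 6 of 14 alternatives and that of RNASEH2B in 4.

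Cell-cycle genes around S phase moved in both directions. Of 22 tested G1/S regulators 11 were higher and 8 were lower, with CDK4 at −0.65, CDK6 at −0.71 and CCND1, cyclin D1, at −0.66. CDKN1A, the inhibitor p21, was lower too, at −0.78, while CDKN2C and CDKN2D, inhibitors of CDK4 and CDK6, were higher at 0.95 and 0.66, each from under 5 CPM in siNC. E2F3, a transcription factor of S-phase genes, and CDC25A, which activates CDK2, were higher at 0.23 and 0.35. Among 24 G2/M genes, 18 were higher and 2 were lower, with BUB1B at 0.36, UBE2C at 0.37 and the proliferation marker MKI67 at 0.34, against HMMR at −0.37 and NUSAP1 at −0.14. The median of the G2/M genes was 0.21, beside 0.14 for the 55 replication genes. These rises stand beside the G1 arrest and lower growth that the paper reports for this cell line after knockdown. For CDK4, CDK6 and cyclin D1, the paper reports less protein by immunoblot, the same direction as the transcripts here. It also reports less CCND1 RNA by qRT-PCR. From these RNA data, its gene set analysis linked YKT6 to cell cycle checkpoint control.

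**Figure D4:**
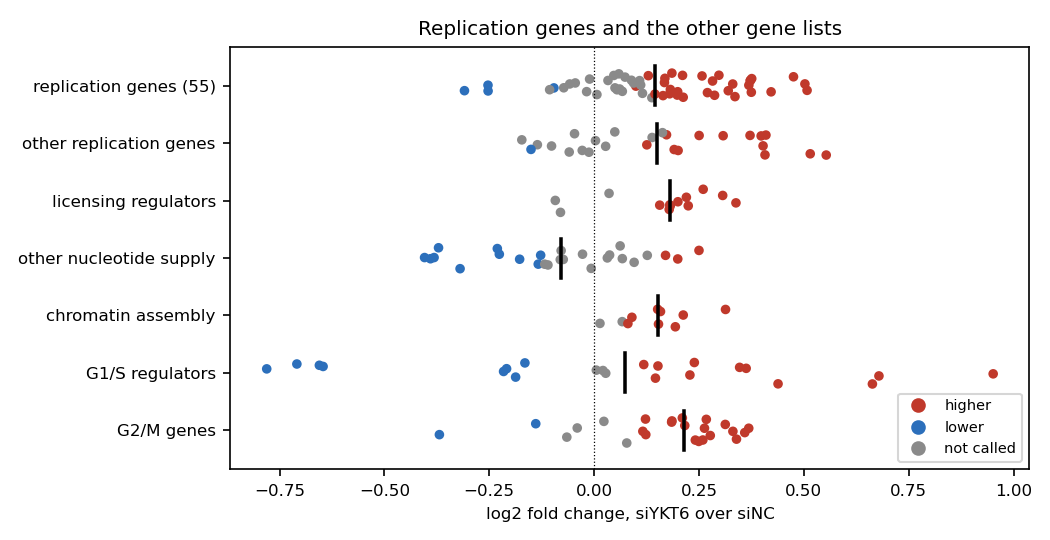
Log2 fold change of siYKT6 over siNC (x axis) for every tested gene of the 55 replication genes and of 6 other lists, with 1 point per gene colored by call and a black bar at the median of each list. The replication genes and G2/M genes lie mostly to the right of 0, other nucleotide supply genes mostly to the left, and G1/S regulators spread widely to both sides.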

How the data were processed

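RNA of 3 siNC and 3 siYKT6 samples of 5637 cells was prepared with a stranded mRNA kit. The deposited values are raw counts, which the authors made by filtering reads with fastp 0.23.0, aligning to GRCh38 and counting exonic reads per gene with featureCounts of Subread 1.5.1. Not given in the sources used here were the aligner, the annotation release and whether counting used strand. Of counts between 1 and 20, 68.8% to 70.0% were even, as happens where each mate of a read pair adds 1 count, so halved counts were an alternative. Pairs of replicates differed by a chi-square per gene of 3.63 to 5.99, so none was counted as a copy of another, and pairs across groups by 32.8 to 40.3.

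The 36887 genes were filtered with filterByExpr, which left 21036, and siYKT6 was compared with siNC over all of them by edgeR 4.0.16 (quasi-likelihood F test, R 4.3.3), with TMM normalization and Benjamini-Hochberg adjustment over all tested genes at 0.05. CPM use the scaled library sizes. The fitting code was run on simulated counts that gave all genes a common dispersion, which does not cover genes with a wider spread. Its outcome is not reported here. PCLAF was read from the row of its older symbol. The authors used DESeq2.

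The members, lists and promoter words were chosen with earlier results of these data known. Values per sample are given for the 10 largest called rises, up to 8 largest called falls and MCM2 to MCM7. They are also given for the called member with the smallest p in each role group and a few members of the same complexes. Other lists name up to 4 called genes per direction, apart from NME1, which was added after its values had been seen. Some genes that this rule names are not reported here. Alternatives were DESeq2 size factors, upper quartile scaling, no filter, at least 1 CPM in all samples, DESeq2 1.42.0, limma-voom (limma 3.58.1), the replicate number as a block, leaving out each sample, and halved counts.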

Additional observations from a re-analysis of the deposited data

How the results depend on the processing

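Across 14 alternatives, 29 to 33 of the 55 genes were higher and 3 to 5 were lower, against 30 and 4 as reported, and 29 to 32 and 3 to 5 with 1 sample left out. Of the 34 called members, 32 kept their call in all 14, and the exceptions were MCM6 and DSCC1. Of the 21 uncalled members, 16 passed under no alternative, and ORC2, MCM10, RFC2, RPA1 and WDHD1 passed under some. Upper quartile scaling called 3475 of all genes higher and 3094 lower and no filter 3309 and 3181, against 3066 and 3419, and moved the median of all genes by at most 0.0181. Small log2 fold changes turned sign, never past the threshold. ORC2 was at 0.00683 with upper quartile scaling, 0.00138 with no filter, 0.00368 with limma-voom and 0.000382 with the replicate block, and at −0.152 to 0.0756 with 1 sample left out. GMNN was at 0.00014 with upper quartile scaling, and with 1 sample left out GMNN ran from −0.0355 to 0.0154, POLA2 from −0.00628 to 0.109 and TIPIN from −0.0415 to 0.0338. The cause was not tested. Replicate numbers did not pair the samples (correlations of deviations −0.00318, −0.0429 and 0.0128 over 15837 genes), and with the replicate block 30 members were higher and 3 were lower, MCM6 no longer passing. As reported, the smallest called log2 fold changes among members were 0.10 for MCM4 and −0.10 for MCM6.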
